A study of Rattus norvegicus with 10 samples.

Results

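The genes described here encode the proteins of the cytosolic ribosome in the cerebral cortex of the rat. A row of the deposited gene table was taken as a member when its symbol was Rpl or Rps followed by a number, or was Rplp0, Rplp1, Rplp2 or Rpsa, and when its FPKM reached 0.5 in at least 5 of the 10 libraries. FPKM is a count of sequenced fragments scaled to the length of the transcript and to the depth of the library. Of the 32623 rows in the table, 93 rows with 84 symbols matched by name, and 90 rows with 81 symbols passed the filter. Where several rows carried 1 symbol, the row of highest mean FPKM was taken, which gave 81 members, 48 of the large and 33 of the small subunit, among 15169 genes tested. The rule uses names and levels only. The 3 symbols left out, Rpl3l, Rpl39l and Rpl30l1, reached 0.5 FPKM in 1, 3 and 1 libraries, whereas Rpl10l, the weakest member, reached it in all 10.

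The EA group holds 5 libraries of adult male Sprague-Dawley rats. These rats received electroacupuncture at the points GV20 and GV26 with 3 mA at 2/100 Hz for 40 min. The control group holds 5 libraries of rats of the same kind, which were bound for the same 40 min. Both groups were perfused with saline, and poly(A) RNA of the cortex was sequenced as strand-specific paired reads. The comparison asks what this treatment, studied for its effect on the blood-brain barrier, did to cortical RNA, and its record here is the level of each ribosomal protein mRNA. That every library is a separate rat is implied by the labels rather than stated. The p-values thus weigh a difference between the groups against the spread between these libraries. Whole cortex was sequenced, so fewer cells of a type and less RNA per cell cannot be told apart.

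The cytosolic ribosome translates mRNA on a small subunit, which reads the codons, and a large subunit, which joins the amino acids and carries the exit tunnel of the new chain. Each ribosomal protein is needed in about equal number, and in animals their mRNAs usually begin with a cytosine and a run of pyrimidines, the terminal oligopyrimidine tract, through which the kinase complex mTORC1 and the protein LARP1 set their translation together. In the brain, neurons carry many of these mRNAs into dendrites and axons. Ribosomal protein genes have also left many intronless copies in mammalian genomes, and reads of a parent gene can align to such a copy.

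The tract at the start of these mRNAs is shown first because it was found more often in the members than in all promoters. RefSeq promoters (GRCr8) were matched by symbol for 62 of the 81 members, and the 55 that have introns in the deposited table and lie on the same chromosome in both annotations were searched. A run of 5 or more bases, each C or T, was counted from the first C within 5 bases of the annotated start. Pyrimidines before that C, as in Rpl29, were not counted and are not in capitals below. Such a run was found in 32 of these 55 members (58.2%), and in 17.0% of all 33469 promoters of the table. The share was 55.9% in the large subunit and 61.9% in the small subunit. The windows below hold 15 bases before the annotated start and 15 bases from it, read on the strand of the gene, with the run in capitals. They are shown for the intron-bearing members of lowest p in the comparison below for which the 2 annotations share a chromosome.
Rps16 (chr1:92770643-92770672, plus strand): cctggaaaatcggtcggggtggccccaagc
Rpl28 (chr1:78083518-78083547, minus strand): ccccgcccctagtgtCTTTCTTTCCgtctc
Rps15 (chr7:10068101-10068130, minus strand): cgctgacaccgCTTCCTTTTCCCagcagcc
Rps23 (chr2:23814502-23814531, plus strand): tgggtccttcctgCCTCTCTTCTCTCTTTC
Rps4x (chrX:71342907-71342936, minus strand): tccagcgcgcgcagCCTCCgaccctaattt
Rpl10a (chr20:6390518-6390547, plus strand): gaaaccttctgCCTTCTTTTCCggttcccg
Rpl29 (chr8:115947628-115947657, plus strand): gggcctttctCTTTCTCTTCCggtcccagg
Rps10 (chr20:5700730-5700759, minus strand): gccgcgcacgCCCCTTCCTTTCCagcctcc

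The runs of the 32 members, counted from that C, were 5 to 21 bases long, with a median of 9.5 bases. The longest, in Rps23, goes on past the window shown. Rps16 has no such run at the start RefSeq gives, and this is 1 of 3 members whose strand in RefSeq is the other one from the deposited table (of 56 on the same chromosome). The 6 letters CCGGAA, the core of sites bound by ETS factors, stood on either strand within 300 bases around the start of 27 of the 55 members (49.1%), against 15% of all promoters. Its reverse complement TTCCGG shares TTCC with the end of some runs, as in Rpl10a and Rpl29. AAGATGGC, the core of YY1 sites, was in 5.45% of the members and 3.17% of all promoters, CACGTG in 9.09% and 6.42%, and TATAAA in 10.9% and 14.2%, each on either strand. These are matches of letters and do not show that a factor binds.

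The deposited counts summed to 47843590 to 60941939 in EA libraries and to 55223193 to 61707722 in control libraries, and members took 1.08% to 1.17% of them in EA and 1.12% to 1.25% in control. Transcripts of the mitochondrial genome made up 41.7% to 46.7% of summed FPKM in EA libraries, with EA 3 highest, and 38.2% to 45.1% in control libraries. Structural RNA (small nuclear, small Cajal body, ribosomal and other noncoding classes) summed to 1167 FPKM in EA 2 and 1483 FPKM in EA 5, against 349.8 to 397.9 FPKM in the other 8 libraries. Markers of cortex were present, with neuronal markers summing to 1665 to 2288 FPKM in EA and 1825 to 2079 FPKM in control. No marker of any listed cell type was called. At an unadjusted p under 0.05, 6.81% of all genes tested were higher and 7.4% lower in EA. Of 9 neuronal markers, 7 lay above 0 in log2 fold change (2 higher at that p). Of 8 astrocyte markers, 4 lay above 0 and 4 below (1 lower at that p), and of 8 microglial markers, 3 lay above 0 and 5 below. All 7 endothelial markers tested lay below 0 in log2 fold change (3 at an unadjusted p under 0.05), with sums of 88.0 to 95.6 FPKM in EA and 98.8 to 119.7 FPKM in control. All 9 oligodendrocyte markers lay below 0 (4 at that p), with sums of 909.3 to 1160 FPKM in EA and 1025 to 1474 FPKM in control. Of 8 markers of pericytes and smooth muscle, 7 lay below 0 (2 at that p), with sums of 140.9 to 160.2 FPKM in EA and 144.6 to 167.7 FPKM in control. Of 5 blood cell markers tested, 4 lay below 0 (3 at that p). They summed to 7.29 to 17.3 FPKM in EA and 8.56 to 44.4 FPKM in control. The 3 were Hbb, Hba-a1 and Hba-a2, with log2 fold changes of -1.27, -1.05 and -0.95. Cldn5, an endothelial marker, averaged 0.154 FPKM over all libraries and was not tested. The part of these differences in the values of the ribosomal protein mRNAs was not tested.

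Ribosomal protein mRNAs were among the abundant transcripts of the cortex. The median member stood at 165.5 FPKM (177.4 for the large and 140.4 for the small subunit), against 7.56 FPKM for the median gene tested. The highest mean levels over the 10 libraries belonged to Rpl41, the smallest ribosomal protein (726.8 ± 58.7 FPKM, SD), Rpl35 (601.4 ± 36.2 FPKM), the stalk protein Rplp1 (538.7 ± 50.6 FPKM), Rps23 of the decoding centre (461.8 ± 45.8 FPKM), Rps15 (410.9 ± 47.4 FPKM) and Rpl23a, at the exit of the tunnel (373.1 ± 34.1 FPKM). The lowest were Rpl10l (1.15 ± 0.575 FPKM), Rps4y2 (2.09 ± 0.793 FPKM), Rps27l (6.32 ± 0.891 FPKM), Rps10l1 (7.25 ± 3.43 FPKM), Rps29 (14.4 ± 3.53 FPKM) and Rpl39 (16.0 ± 2.31 FPKM). This order is of member rows. The rows of Rps29 and Rpl39 held only 1.53% and 10.1% of the depth-scaled counts of all kept rows described as their protein. A row outside the symbol rule described as S29 stood at 908.1 FPKM, above Rpl41. Of the 80 neighbouring pairs in the order of levels, 63 differed by less than the larger of their SDs, so the order is mostly not resolved between neighbours.

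FPKM divides by a transcript length, and the length implied by count over FPKM was far longer than the ribosomal protein mRNA itself for some members. The 70 members with introns had a median implied length of 703.5 bases, but it was 5146 bases for Rpl7, 3842 bases for Rpl11, 3503 bases for Rpl3 and 2701 bases for Rpl13a. Rpl3, which shapes the peptidyl transferase centre, ranked 58 of 81 by FPKM and 4 by CPM, the count scaled to the depth of the library alone. Rpl7 ranked 69 by FPKM and 17 by CPM. Rpl4, of the exit tunnel, had the highest CPM of all members (388.2). In all, 9 members with introns had an implied length over 1500 bases, Rps16 and Rpl28 among them. Rps16 ranked 48 by FPKM and 12 by CPM. Differences between groups are not touched by a length that is the same in every library.

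Members differed in how steady they were with the form of their row. In 11 members the implied length was within 3% of the genomic span of the row, so the row has no intron: Rpl9, Rpl10l, Rpl35a, Rpl37, Rpl38, Rpl39, Rps4y2, Rps10l1, Rps13, Rps18l1 and Rps29. For 8 of them RefSeq puts the gene of that symbol on another chromosome. The coefficient of variation over the 10 libraries was 10.9% to 62.7% in these unbroken rows, with a median of 24.6%. In the 70 members with introns it was 2.98% to 38.6%, with a median of 6.33%, and 57 of the 70 were under 10%. The steadiest were Rpl5 (2.98%), which carries the 5S ribosomal RNA, Rpl14 (3.02%), Rps3a (3.06%) and Rpl23 (3.07%). How many reads of an unbroken row come from another gene was not tested.

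**Figure D1:**
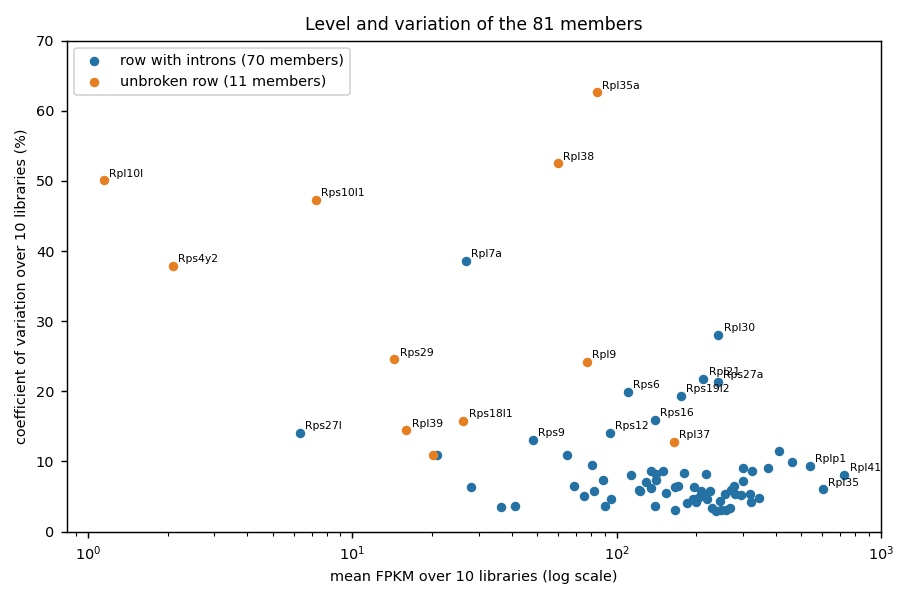
Mean FPKM over the 10 libraries (log scale) against the coefficient of variation over the same libraries in percent, 1 point a member, blue for 70 rows with introns and orange for 11 unbroken rows. Every unbroken row lies above 10%, and 57 of the 70 rows with introns lie below it.

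No member was called in EA against control by edgeR (quasi-likelihood F test, adjusted p under 0.05 and a fold above 1.2), where 0.0198% of all genes tested were called higher and 0% lower. The smallest adjusted p of a member was 0.173. At an unadjusted p under 0.05, 4 members (4.94%) were higher in EA, beside 6.81% of all genes tested, and 12 members (14.8%) were lower in EA, beside 7.4% of all genes tested. In 2 members all EA libraries lay below all control libraries in FPKM (2.47%, beside 2.25% of all genes), and in 0 members all lay above (beside 0.85%). The log2 fold change was below 0 in 64 of the 81 members, with a median of -0.06, against 50.5% below 0 and a median of -0.002 over all genes tested. Of the 1298 other genes with a mean of at least 50 FPKM, 53.5% lay below 0, with a median of -0.01, and 11.0% were lower at that p, beside 82.1% below 0 and 16.4% lower among the 67 members of that level. The shift is thus small, and 70 members lay within a fold of 1.2. The count of lower members was 19 without control 1 (beside 8.44% of all genes tested) and 7 without EA 2 and EA 5 (beside 4.36%). The count of higher members was 2 without EA 3 (beside 7.81%) and 1 without control 4 (beside 5.77%) or control 5 (beside 5.6%). Without control 3, 54 members lay below 0.

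**Figure D2:**
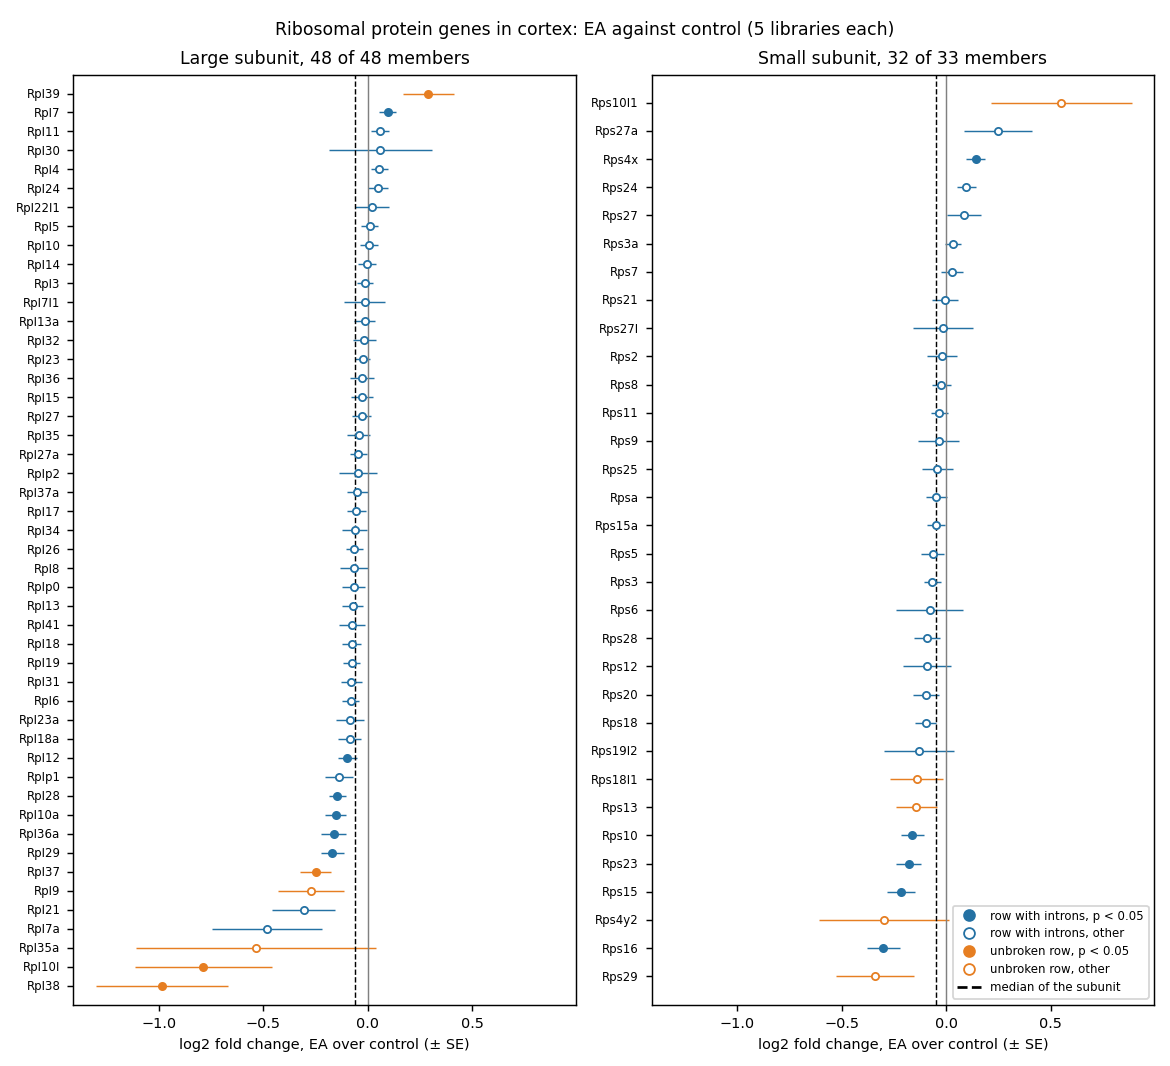
Log2 fold change of EA over control (x axis) with its standard error for 80 of the 81 members (y axis), large subunit left and small subunit right. Filled points have an unadjusted p under 0.05, orange points are unbroken rows, and the dashed lines are the medians, -0.06 for the large and -0.05 for the small subunit.

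The lowest p of all members belonged to Rps16, whose tail touches the tRNA that holds the growing chain (chr1:85405512-85408444 in Rnor_6.0, minus strand, ENSRNOG00000019578). Rps16 stood at 121.8, 114.5, 128.9, 130.3 and 123.3 FPKM in EA 1 to EA 5, against 123.7, 172.2, 143.5, 169.9 and 167.6 FPKM in control 1 to control 5. The EA libraries were close together, and control 1 lay inside their range while the other control libraries lay above it. The log2 fold change of Rps16 was -0.30 with a standard error of 0.08 (edgeR adjusted p = 0.173). The DESeq2 Wald test on the same counts called Rps16 lower (adjusted p = 0.0191), and called 0.793% of the genes it adjusted lower. It called no other member.

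Rps15 and Rps23 are the other small subunit members of high level among the lower ones. Rps15, at the decoding side of the subunit head (chr7:12282109-12283608, minus strand), stood at 349.4, 362.6, 394.2, 426.2 and 351.3 FPKM in EA libraries, against 396.2, 449.0, 487.7, 441.4 and 450.5 FPKM in control libraries. Only EA 4 reached into the control range. The log2 fold change of Rps15 was -0.22 with a standard error of 0.07 (edgeR adjusted p = 0.217). Rps23, which helps keep the decoding of codons accurate (chr2:19823234-19824804, plus strand), stood at 400.6, 412.8, 451.7, 457.2 and 423.0 FPKM in EA libraries, against 433.9, 484.4, 531.2, 514.8 and 508.4 FPKM in control libraries. Here too control 1 was the control library inside the EA range. The log2 fold change of Rps23 was -0.18 with a standard error of 0.06 (edgeR adjusted p = 0.223). Rps10, a protein of the subunit head that is marked by ubiquitin when ribosomes stall, stood at 144.1, 124.0, 137.2, 124.9 and 127.9 FPKM in EA libraries, against 152.7, 153.4, 145.0, 153.1 and 144.1 FPKM in control libraries. The highest EA library and the lowest control library were level, and the log2 fold change of Rps10 was -0.16 with a standard error of 0.06 (edgeR adjusted p = 0.241).

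Among the large subunit members, Rpl28 (chr1:72619282-72621519, minus strand) stood at 82.9, 82.8, 83.6, 86.3 and 83.8 FPKM in EA libraries, against 86.2, 94.0, 96.2, 94.8 and 100 FPKM in control libraries. The EA libraries of Rpl28 lay in a narrow range and only EA 4 reached the lowest control library. The log2 fold change of Rpl28 was -0.15 with a standard error of 0.04 (edgeR adjusted p = 0.202). Rpl29, a small basic protein also known as a heparin binding protein at the cell surface (chr8:115131367-115133401, plus strand), stood at 269.1, 271.8, 300.6, 266.6 and 292.1 FPKM in EA libraries, against 302.3, 305.9, 342.3, 343.3 and 307.8 FPKM in control libraries. The groups of Rpl29 did not overlap. Its log2 fold change was -0.17 with a standard error of 0.06 (edgeR adjusted p = 0.229). The other member without overlap was Rpl19, which forms a bridge between the subunits. Rpl19 stood at 341.8, 312.8, 340.8, 338.5 and 334.5 FPKM in EA libraries, against 346.2, 345.5, 363.9, 365.9 and 367.3 FPKM in control libraries. The gap between the groups was small, and with a log2 fold change of -0.08 and a standard error of 0.04 Rpl19 had an unadjusted edgeR p of 0.0872.

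Rpl10a, which lies in the mobile L1 stalk where spent tRNA leaves, stood at 123.8, 122.3, 122.7, 134.9 and 129.7 FPKM in EA libraries, against 128.5, 138.9, 155.3, 150.8 and 142.2 FPKM in control libraries. Control 1 was again the lowest control library, and the log2 fold change of Rpl10a was -0.15 with a standard error of 0.05 (edgeR adjusted p = 0.228). Rpl36a averaged 75.6 ± 6.36 FPKM in EA and 86.0 ± 4.84 FPKM in control (SD, n = 5 each). Rpl12, of the base of the stalk that binds elongation factors, averaged 188.5 ± 10.4 FPKM in EA and 204.9 ± 8.32 FPKM in control. Both were lower in EA at an unadjusted edgeR p under 0.05, with log2 fold changes of -0.16 and -0.10. With all rows described as their protein summed, neither reached that p, and the log2 fold changes were -0.06 for both. The row of Rpl36a held 53.1% of its sum and the row of Rpl12 77.4%.

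**Figure D3:**
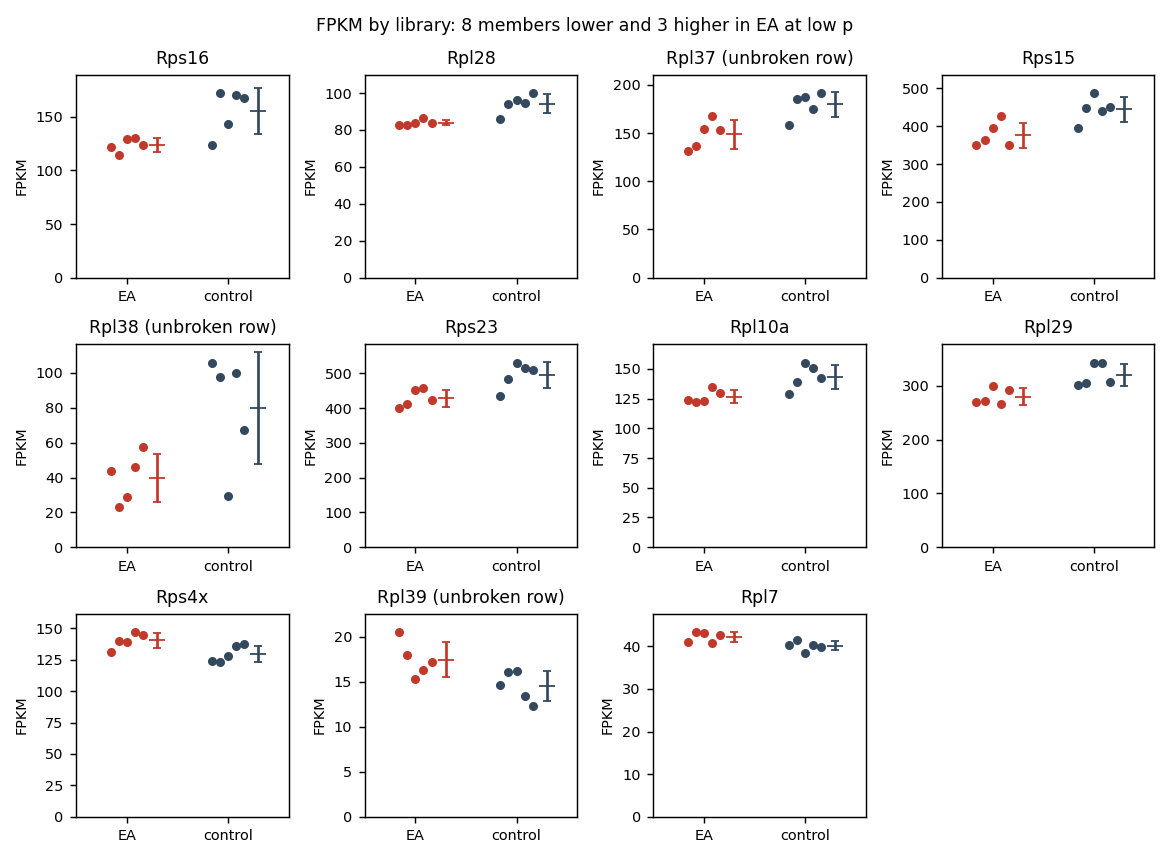
FPKM of each library (y axis, from 0) in EA (left, red) and control (right, dark) for 8 lower and 3 higher members of low p, with mean and SD beside the points. In Rpl29 the groups do not overlap, and in Rps16, Rps15, Rps23 and Rpl28 control 1 is the lowest control library.

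The remaining lower members at that p sat in unbroken rows. Rpl37, a zinc-binding protein near the exit tunnel, is placed on chromosome 10 by the deposited table and on chromosome 2 by RefSeq. It stood at 131.3, 136.2, 154.5, 167.7 and 153.6 FPKM in EA libraries, against 158.5, 185.7, 187.6, 174.7 and 191.5 FPKM in control libraries. Only EA 4 reached into the control range, and the log2 fold change was -0.25 with a standard error of 0.07 (edgeR adjusted p = 0.205). Rpl38, known in mice for its part in the translation of Hox mRNAs, is in a row of 213 bases on chromosome 8, where RefSeq has the gene on chromosome 10. It stood at 44.0, 23.0, 28.7, 46.2 and 57.4 FPKM in EA libraries, against 106.0, 97.5, 29.1, 99.8 and 67.5 FPKM in control libraries. Control 3 lay with the EA libraries, and the log2 fold change of -0.98 had a standard error of 0.32 (edgeR adjusted p = 0.218). Rpl10l, a copy of Rpl10 known from the testis of mice, held only 19 to 43 counts in EA libraries and 33 to 93 counts in control libraries, with a log2 fold change of -0.79 and a standard error of 0.33 (edgeR adjusted p = 0.307).

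Among the 4 members higher in EA at an unadjusted p under 0.05 were Rps4x, Rpl7 and Rpl39. Rps4x, the X-linked small subunit protein (chrX:72074108-72078551, minus strand), stood at 131.5, 139.6, 139.4, 147.0 and 144.9 FPKM in EA libraries, against 123.9, 122.8, 127.8, 135.7 and 137.2 FPKM in control libraries. EA 1 lay inside the control range and the other EA libraries above it. The log2 fold change of Rps4x was 0.14 with a standard error of 0.05 (edgeR adjusted p = 0.225). Rpl7 averaged 42.2 ± 1.2 FPKM in EA and 40.1 ± 1.09 FPKM in control, with a log2 fold change of 0.09 and a standard error of 0.04 (edgeR adjusted p = 0.322). The groups of Rpl7 overlapped. Rpl39, which lines the exit tunnel, is an unbroken row on chromosome 14 at 15.3 to 20.5 FPKM in EA and 12.3 to 16.2 FPKM in control, with a log2 fold change of 0.29 and a standard error of 0.12 (edgeR adjusted p = 0.313).

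The next members above 0 did not reach that p. Rps24, whose human gene is mutated in some families with Diamond-Blackfan anaemia, averaged 209.0 ± 11.4 FPKM in EA and 198.6 ± 3.95 FPKM in control. Rpl11, which with Rpl5 holds the 5S RNA and can bind the p53 ligase Mdm2, averaged 37.0 ± 1.78 FPKM in EA and 36.1 ± 0.265 FPKM in control. The control libraries of Rpl11 spanned only 35.9 to 36.5 FPKM. Rps10l1, an unbroken row, averaged 8.57 ± 4.00 FPKM in EA and 5.93 ± 2.47 FPKM in control. Rps27a, which is made as a fusion with ubiquitin, averaged 260.8 ± 52.5 FPKM in EA and 222.5 ± 48.3 FPKM in control. The spread of both was far wider than that of Rps24 or Rpl11.

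The acidic stalk, which recruits the elongation factors, is built of Rplp0, Rplp1 and Rplp2. Rplp1 averaged 508.2 ± 43.4 FPKM in EA and 569.2 ± 39.3 FPKM in control, with a log2 fold change of -0.14 and a standard error of 0.07 (edgeR adjusted p = 0.371). Rplp0, often used as a reference gene, averaged 269.3 ± 19.2 FPKM in EA and 287.0 ± 13.6 FPKM in control. Rplp2 averaged 63.2 ± 3.35 FPKM in EA and 66.4 ± 9.72 FPKM in control, with 83.4 FPKM in control 3. The row of Rplp2 held 30.8% of the depth-scaled counts of all kept rows described as its protein. The sum of these rows had a log2 fold change of 0.01, against -0.05 for the member, and varied by 2.56% against 10.9%. Among the member rows of the stalk and 5S proteins, Rpl5 differed least, at 236.1 ± 8.15 FPKM in EA and 238.5 ± 6.53 FPKM in control. Its log2 fold change was 0.01 with a standard error of 0.04. Rpsa, also known as the laminin receptor, averaged 310.2 ± 13.4 FPKM in EA and 325.8 ± 17.6 FPKM in control, and Rpl41 averaged 702.3 ± 56.9 FPKM in EA and 751.4 ± 54.9 FPKM in control. Neither reached an unadjusted p under 0.05. Rpl35 averaged 587.5 ± 36.4 FPKM in EA and 615.4 ± 33.7 FPKM in control. Rpl23a averaged 359.5 ± 43.9 FPKM in EA and 386.8 ± 14.9 FPKM in control.

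Some symbols belong to paralogs of a ribosomal protein. Rpl10l is described above, and none of those that follow reached an unadjusted p under 0.05. Rpl7l1 averaged 20.6 ± 2.93 FPKM in EA and 21.2 ± 1.74 FPKM in control. Rpl22l1 averaged 28.1 ± 1.75 FPKM in EA and 28.2 ± 2.07 FPKM in control. Rps27l, a p53 target in human cells, averaged 6.22 ± 0.871 FPKM in EA and 6.42 ± 1.00 FPKM in control, beside its partner Rps27 at 333.1 ± 18.7 FPKM in EA and 318.8 ± 36.3 FPKM in control. Rps4y2 averaged 1.87 ± 0.188 FPKM in EA and 2.32 ± 1.12 FPKM in control. Rpl10 was close in both groups, at 228.0 ± 7.85 FPKM in EA and 230.7 ± 8.57 FPKM in control, and so was Rpl3, at 89.0 ± 2.93 FPKM in EA and 91.3 ± 3.66 FPKM in control, with log2 fold changes of 0.01 and -0.01 and standard errors of 0.04 each. No row with the symbol Rpl22 was among the members. LOC100360057, a row with introns outside the symbol rule that is described as L22, averaged 85.4 FPKM over all libraries. Its log2 fold change was 0.04 with a standard error of 0.06.

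In 7 symbols several rows were kept, 9 of them beside the member. The 2 rows of Rps27a moved against each other. The row with introns on chromosome 14 stood at 149.5, 92.8, 127.6, 155.3 and 113.7 CPM in EA libraries, against 147.8, 102.8, 95.9, 86.3 and 111.6 in control libraries, while the unbroken row on chromosome 5 stood at 88.4, 110.4, 106.4, 84.2 and 132.0 in EA libraries, against 87.9, 126.9, 130.7, 126.8 and 121.5 in control libraries. The coefficient of variation was 5.56% in the sum of both, against 21.4% in the row with introns, and the sums averaged 232.0 ± 16.6 CPM in EA and 227.6 ± 8.82 in control. Rps19l2, whose row on chromosome 1 was low in EA 2 at 95.0 FPKM while its row on chromosome 9 was highest there at 145.0 FPKM, had 8.50% in the sum against 19.3%.

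Rpl21 had 4 rows, and the unbroken one on chromosome 3 held 64.8 FPKM in EA 4, 87.5 FPKM in EA 5 and 56.6 FPKM in control 3, against 0.775 to 5.05 FPKM in the other 7 libraries. The main row of Rpl21 averaged 189.0 ± 37.4 FPKM in EA and 236.4 ± 45.2 FPKM in control (edgeR adjusted p = 0.381), and the sum of the 4 rows varied by 15.3%. Its log2 fold change was -0.31 in the main row and -0.09 in the sum, which averaged 182.5 ± 33.4 CPM in EA and 196.9 ± 25.6 CPM in control. The 2 rows of Rpl7a, both with introns on chromosome 3, stood at almost the same FPKM in most libraries, but at 47.0 and 25.6 FPKM in EA 2, and their sum varied by 37.7%. Rps10, Rpl32 and Rps4x kept a coefficient of variation of 7.06%, 5.47% and 4.68% in the sum of their rows. The sum for Rps10 averaged 91.9 ± 3.95 CPM in EA and 103.4 ± 2.86 in control, and the sum for Rps4x averaged 222.6 ± 8.40 in EA and 209.1 ± 6.61 in control, so the direction of these members was that of the main row.

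Other rows lie outside the symbol rule, and they were looked at after the members' values had been seen. In 91 kept rows the description names a cytosolic ribosomal protein although the symbol is another, and 70 of these rows are unbroken. Their mean FPKM sums to 3714, beside 14660 for the members. The largest is LOC108352650, described as S29, at 908.1 FPKM on chromosome 6, where RefSeq has the gene Rps29, while the member Rps29 is an unbroken row on chromosome 13 at 14.4 FPKM. LOC108352650 stood at 723.1, 783.5, 872.9, 964.9 and 833.2 FPKM in EA libraries, against 855.3, 999.4, 1086, 1007 and 955.9 FPKM in control libraries. The groups overlapped, and its log2 fold change was -0.21 with a standard error of 0.08 (edgeR adjusted p = 0.264). At an unadjusted edgeR p under 0.05, 10 of the 91 rows were higher and 3 lower in EA, beside 6.81% and 7.4% of all genes tested. The rows are not independent, since several can be described as the same protein. Rps15al4 and LOC100909878, both higher at that p, are both described as S15A. A contrast of the 91 rows with the members, of which 4 were higher and 12 lower, was not tested. The lowest p belonged to AABR07039448, an unbroken row on chromosome X described as S21, at 33.8, 33.1, 38.1, 37.4 and 34.8 FPKM in EA libraries, against 47.6, 50.1, 53.9, 50.3 and 47.7 FPKM in control libraries. The groups did not overlap, and its log2 fold change was -0.47 with a standard error of 0.08 (edgeR adjusted p = 0.089). That adjusted p is below that of any member, while the member Rps21 had a log2 fold change of -0.01 and the sum of both rows -0.10. RGD1564606, an unbroken row described as L23A, stood at 64.4, 28.7, 118.2, 23.6 and 28.6 FPKM in EA libraries, against 29.1, 13.2, 21.9, 17.9 and 12.6 FPKM in control libraries. It was high in EA 3 and EA 1, with a log2 fold change of 1.499 and a standard error of 0.45 (edgeR adjusted p = 0.211), and the sum for Rpl23a had 0.03, against -0.08 for the member. Another row is LOC100911372, described as S6, on chromosome 5 with Rps6, the S6 kinase substrate whose phosphorylation is used as a marker of neuronal activity. Rps6 stood at 93.6, 62.7, 63.7, 103.2 and 88.4 CPM in EA libraries, against 104.4, 65.7, 100.5, 73.1 and 95.5 in control libraries. LOC100911372 was high where Rps6 was low, and the sum of the pair was 220.4 to 233.8 in EA and 210.6 to 224.2 in control, with a coefficient of variation of 3.21% against 20.0% for Rps6 alone.

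For 46 proteins several rows were kept, and the coefficient of variation was smaller in the sum of their rows than in the member for 33 of them, with medians of 5.64% in the sums and 8.10% in the members. With all such rows summed and the whole table refitted, 4 members were higher and 12 lower at an unadjusted edgeR p under 0.05. In that fit 7.19% of all genes were higher and 7.14% lower. For Rpl30 the sum had 7.75% against 28.1%. For Rpl38 the sum of 5 unbroken rows ran from 29.95 to 32.5 CPM in EA and from 32.7 to 38.5 in control, without overlap, and its log2 fold change was -0.18 with a standard error of 0.06 (edgeR adjusted p = 0.243), against -0.98 for the member row. Rps16, Rps15, Rps23, Rpl28 and Rpl29 had no other kept row described as their protein.

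**Figure D4:**
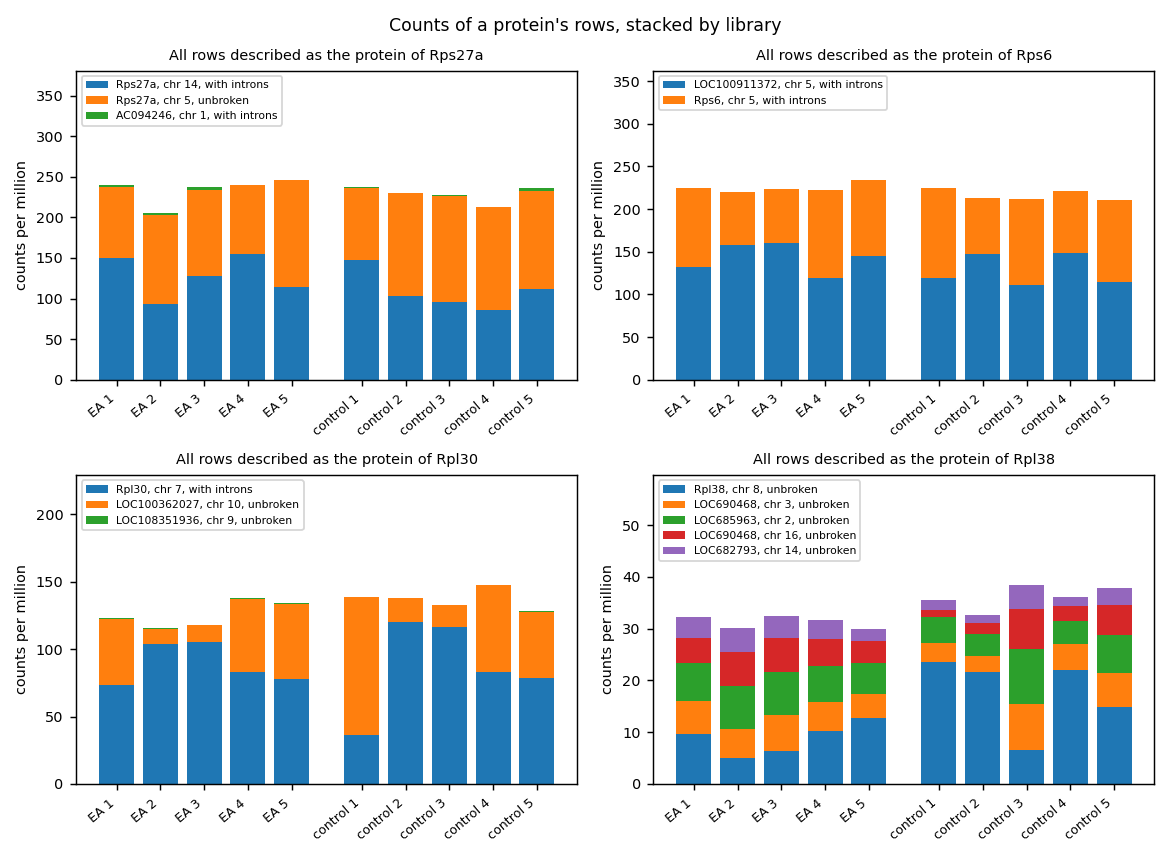
CPM (y axis) of every kept row described as the protein of Rps27a, Rps6, Rpl30 or Rpl38, stacked by row in each library (x axis), EA left and control right. The split between rows changes from library to library and the sums vary less, 220.4 to 233.8 in EA and 210.6 to 224.2 in control for Rps6.

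The subunits were compared by their median log2 fold change, as a description. It was -0.06 in the 48 large subunit members, of which 39 lay below 0, and -0.05 in the 33 small subunit members, of which 25 lay below 0. The difference between the medians, large minus small, was -0.02, and this difference varied between libraries of a group by an SD of 0.02, so it was no larger than the spread. It was 0.01 without EA 1 and 0.002 without control 4, that is, on the other side of 0. At an unadjusted p under 0.05, 8 large (16.7%) and 4 small subunit members (12.1%) were lower, beside 7.4% of all genes tested. In each subunit 2 were higher at that p (4.17% and 6.06%), beside 6.81% of all genes tested. In the 70 members with introns the medians were -0.05 in the large and -0.04 in the small subunit.

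By library, the 42 large subunit members with introns had a median log2 difference from the control mean of -0.09, -0.10, 0.01, -0.01 and -0.06 in EA 1 to EA 5, against -0.04, -0.03, 0.08, -0.01 and 0.002 in control 1 to control 5. The 28 small subunit members with introns had -0.06, -0.11, 0.05, -0.01 and -0.03 in EA libraries, against -0.03, -0.01, 0.09, -0.03 and -0.0003 in control libraries. Both subunits were lowest in EA 2 and EA 1 and highest in control 3, and the groups overlapped through EA 3 and EA 4 in both subunits and also through EA 5 in the small subunit. EA 3 also had the largest mitochondrial share, and EA 2 was rich in structural RNA together with EA 5. The large subunit held 62.5% to 64.0% of summed member FPKM in EA and 62.7% to 64.0% in control. Members summed to 13740, 13520, 14530, 14900 and 14390 FPKM in EA libraries, against 14320, 15050, 16070, 15130 and 14970 FPKM in control libraries. As a share of counts outside the mitochondrial genome, members held 1.40%, 1.37%, 1.53%, 1.51% and 1.46% in EA libraries, against 1.48%, 1.47%, 1.57%, 1.48% and 1.49% in control libraries. EA 1, EA 2 and EA 5 were below every control library, and EA 3 and EA 4 were above all control libraries but control 3.

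**Figure D5:**
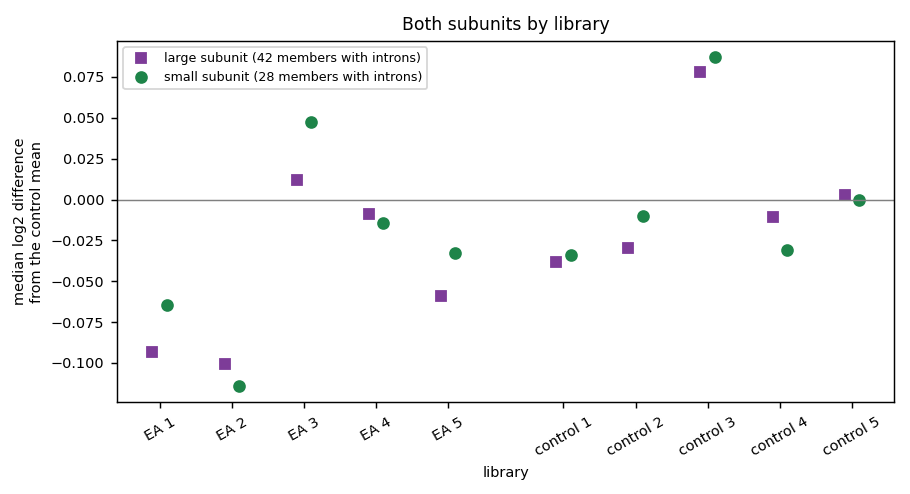
Median log2 difference from the control mean (y axis) over the 42 large (squares) and 28 small (circles) subunit members with introns in each library (x axis), EA left and control right. The 2 subunits lie close together, lowest in EA 2 (-0.10 and -0.11) and highest in control 3 (0.08 and 0.09).

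Genes around the ribosome were counted in the same fit, and none was called. Rack1, a small subunit protein that binds kinases, averaged 75.2 ± 2.96 FPKM in EA and 82.5 ± 4.70 FPKM in control, with a log2 fold change of -0.11 and a standard error of 0.04 (edgeR adjusted p = 0.298). Of 18 other mRNAs known for a terminal oligopyrimidine tract, 13 lay below 0 (median log2 fold change -0.03), and 3 were higher and 2 lower at an unadjusted p under 0.05. Eif3f, a subunit of initiation factor 3, was below its control range in every EA library, at 92.6 ± 4.16 FPKM in EA and 105.8 ± 7.83 FPKM in control (edgeR adjusted p = 0.234). Npm1, a nucleolar chaperone of ribosome assembly, averaged 55.0 ± 4.92 FPKM in EA and 49.6 ± 2.84 FPKM in control, and Nap1l1, a histone chaperone, averaged 57.5 ± 3.08 FPKM in EA and 53.02 ± 2.64 FPKM in control.

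Initiation factors bring the small subunit to the mRNA. Of 32 tested, 18 lay above 0, and 5 were higher and 1 lower at an unadjusted p under 0.05, beside 6.81% and 7.4% of all genes. Eif5, which triggers GTP hydrolysis on the scanning ribosome, was above its control range in every EA library, at 67.9 ± 2.12 FPKM in EA and 62.2 ± 2.22 FPKM in control (edgeR adjusted p = 0.198). Eif2s1, the subunit that stress kinases phosphorylate, averaged 24.7 ± 1.93 FPKM in EA and 21.3 ± 1.34 FPKM in control (edgeR adjusted p = 0.188). The helicases Eif4a1 and Eif4a2 both had a log2 fold change of 0.13 with a standard error of 0.04 (edgeR adjusted p = 0.211 each). Of 10 elongation and termination factors, 1 was higher at that p, the release factor Etf1, at 22.6 ± 1.54 FPKM in EA and 20.8 ± 1.00 FPKM in control. Eef2, the translocase, averaged 408.5 ± 25.6 FPKM in EA and 452.6 ± 29.4 FPKM in control (edgeR adjusted p = 0.402).

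Of 19 genes of mTORC1 and S6 kinase signalling, 2 were higher and 2 lower at an unadjusted p under 0.05. Tsc2, which restrains mTORC1, was below its control range in every EA library, at 45.5 ± 3.02 FPKM in EA and 51.8 ± 1.49 FPKM in control (edgeR adjusted p = 0.242), and so was Mlst8, a subunit of both mTOR complexes, at 10.7 ± 0.260 FPKM in EA and 12.01 ± 0.499 FPKM in control (edgeR adjusted p = 0.263). Rheb, which activates mTORC1, averaged 75.7 ± 9.72 FPKM in EA and 68.7 ± 2.20 FPKM in control, and the S6 kinase Rps6kb1 averaged 12.4 ± 1.44 FPKM in EA and 11.0 ± 0.582 FPKM in control. Of 14 genes of RNA polymerase I and its regulators, Mycn alone was higher at that p, at 1.71 ± 0.269 FPKM in EA and 1.36 ± 0.187 FPKM in control (edgeR adjusted p = 0.325). Of 10 genes of ribosome stalling, Gtpbp2, which helps to rescue stalled ribosomes, was lower at that p, at 12.1 ± 0.708 FPKM in EA and 13.2 ± 0.699 FPKM in control (edgeR adjusted p = 0.336). Of 7 genes of the p53 checkpoint that senses free ribosomal proteins, the cell cycle inhibitor Cdkn1a was higher at that p, at 14.8 ± 1.95 FPKM in EA and 12.9 ± 1.19 FPKM in control (edgeR adjusted p = 0.325).

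The members with a pyrimidine run at the annotated start and those without one were set side by side as a description. Of the 32 with a run, 24 lay below 0, with a median log2 fold change of -0.06. At an unadjusted p under 0.05, 8 of them were lower and 1 higher, beside 7.4% and 6.81% of all genes tested. Of the 23 without a run, 19 lay below 0, with a median of -0.05, and 1 was lower and 0 were higher at that p. The lower one is Rps16, whose window is shown above. The other windows shown hold a run, but they were picked for low p, and Rps4x among them was higher in EA.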

How the data were processed

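Poly(A) RNA of 10 rat cortex libraries, 5 EA and 5 control, was sequenced. The submitters' processing notes name Bowtie 0.12.2, HISAT2 2.0 and StringTie 1.3.0, and the genome was Rnor_6.0. The deposited FPKM and the deposited estimated counts per gene were made by the authors, and how the counts were drawn from the assembly is not given in the sources used here. Genes with at least 0.5 FPKM in 5 libraries were kept, and the counts, which are whole numbers, were tested with edgeR 4.0.16 in R 4.3.3 (TMM scaling, quasi-likelihood F test, Benjamini-Hochberg adjustment over all 15169 genes). The standard error is the log2 fold change over the square root of F. Alternatives used limma 3.58.1, DESeq2 1.42.0, other scalings and filters, and fits without single libraries. Named were the 8 members of lowest p in each direction, those whose groups did not overlap, the 6 of highest and of lowest level, the stalk and 5S proteins, Rpsa, Rps6, Rps27a and Rpl41, paralogs with their partners, symbols with several rows, and up to 4 genes of lowest p in each pathway list. Some results that this rule names are not reported here. Rpl36a, Rpl12, the steadiest members and rows outside the symbol rule were named after their values were seen. Scripts were tested on simulated data. The members and lists were chosen with earlier results of these data known.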

Additional observations from a re-analysis of the deposited data

Results flagged for a closer look

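In 90 groups of 5 libraries, 1 library stood apart from the others in 6 by Dixon's test (critical value 0.71), where chance alone marks about 1 in 20 groups. Rpl19 stood at 312.8 FPKM in EA 2 and at 334.5 to 341.8 FPKM in the other EA libraries. Rpl21 stood at 253.8 FPKM in EA 5 and at 159.9 to 184.0 FPKM in the other EA libraries. Rpl28 stood at 86.26 FPKM in EA 4 and at 82.83 to 83.80 FPKM in the other EA libraries. Rplp2 stood at 83.36 FPKM in control 3 and at 59.26 to 64.97 FPKM in the other control libraries. Members held 1.572% of the counts outside the mitochondrial genome in control 3 and 1.467% to 1.489% in the other control libraries. Mitochondrial transcripts made up 46.73% of FPKM in EA 3 and 41.71% to 42.71% in the other EA libraries.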

How the results depend on the processing

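No member was called in any alternative other than the DESeq2 Wald test, which called 1, Rps16. The number of members higher in EA at an unadjusted p under 0.05 was 4 (beside 6.81% of all genes tested). It was 1 with library totals alone (beside 4.57%) and 2 with no expression filter (beside 4.88%). It was 1 with limma on log2(FPKM + 0.1) (beside 4.16%) and 1 with limma on log2(FPKM + 1) (beside 4.23%). With single libraries left out it was 1 to 6 (beside 5.39% to 8.77%). The number lower was 12 (beside 7.4% of all genes tested). It was 7 without EA 2 and EA 5 (beside 4.36%) and 10 to 19 with single libraries left out (beside 5.17% to 8.44%). The large minus small median was -0.02472 to 0.007502 with single libraries left out and 0.01614 with the rows of a described protein summed, an alternative chosen after seeing the data, as was the restriction to members with introns. Both subunit medians lay below 0 in all 48 values under the alternatives, at -0.07557 to -0.02795 in the large and -0.06538 to -0.02364 in the small subunit with single libraries left out.

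Small log2 fold changes changed sign in 36 of 880 values of named members. With library totals alone, limma on log2(FPKM + 0.1) and limma on log2(FPKM + 1), they were -0.01536, -0.01687 and -0.01681 for Rpl10, -0.001077, -0.002068 and -0.002033 for Rpl22l1, and -0.01301, -0.01495 and -0.01489 for Rpl5. Without EA 2 and EA 5 they were -0.006295 for Rpl10, -0.007555 for Rpl22l1, 0.01842 for Rpl3, 0.0618 for Rps19l2, 0.0412 for Rps27l and 0.007411 for Rps6. With single libraries left out they ran from -0.01298 to 0.0285 for Rpl10, from -0.02076 to 0.05677 for Rpl22l1, from -0.03126 to 0.005598 for Rpl3, from -0.03924 to 0.02387 for Rpl32, from -0.005084 to 0.0294 for Rpl5, from -0.07098 to 0.05049 for Rpl7l1, from -0.07777 to 0.05274 for Rplp2, from -0.2649 to 0.01619 for Rps19l2, from -0.09134 to 0.08148 for Rps27l and from -0.1695 to 0.003484 for Rps6. The cause was not tested.

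Libraries of the same number in both groups were treated as not paired, since the labels name no pairing. Their deviations correlated at -0.0026, 0.0605, 0.0301, 0.00668 and 0.0162 across genes. These values cannot exclude a pairing, because one that touches few genes would not show in them. With the number as a replicate block, 0 members were called. At an unadjusted p under 0.05, 3 were higher and 15 lower, beside 6.44% and 7.62% of all genes tested. The medians were -0.06082 and -0.04823, with a large minus small difference of -0.01259.

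Rows without introns and rows that share a protein limit what a single row says of its gene.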
